A study of Mus musculus with 192 samples.

Results

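The 10 genes described here are Hif1a, which encodes the oxygen-regulated transcription factor HIF1A, and 9 genes of the hypoxic and glycolytic response: Egln3, Slc2a1, Hk2, Ldha, Pdk1, Vegfa, Bnip3, Ndrg1 and Ca9, named Car9 in the mouse annotation. The genes were fixed by name, and the windows described are those of the deposited list of accessible sites that overlapped a gene body or the 10 kb on either side of it. They numbered 53 of the 50000 windows in the list, each 500 bp long and centred on a summit of accessibility. The list came from Pi-ATAC, in which single cells are sorted by a stained protein and their open chromatin is read with a transposase. By title, 96 samples were single cells of 4T1, a line from a mouse breast cancer, sorted with an antibody to the epithelial protein EpCam, and 96 were single splenocytes, freshly taken from the spleen of an MMTV-PyMT transgenic mouse that carried no tumour at that time, sorted with an antibody to the leukocyte protein CD45. In 1 sample titled as a 4T1 cell the source name was that of the splenocytes. All samples were fixed, 1 cell line and 1 spleen were used, and neither the age of the mouse nor any low-oxygen treatment of the mixture is given in the sources used here. The MMTV promoter drives the PyMT oncogene mainly in mammary epithelium. The list was read from its call names as 1 pooled call over both groups, although the study's methods describe summit calls on the cells of a single condition, so that its source is not settled. Therefore the group that supplied a given window cannot be told, nothing could be compared between 4T1 cells and splenocytes, and no value below has a replicate. Among genes that mark the sorted populations, 4 of 4 epithelial genes (Epcam, Cdh1, Krt8 and Krt18) and 2 of 4 leukocyte genes (Cd79a and Cd3e) had a window within 1 kb of a start, and Ptprc, which encodes CD45 itself, had 3 windows away from its starts.

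HIF1A pairs with ARNT and binds DNA at sites built around the core word ACGTG. In the presence of oxygen, prolyl hydroxylases of the EGLN family mark HIF1A for the ubiquitin ligase that contains VHL, and the protein is destroyed. When oxygen falls, HIF1A persists and raises the transcription of genes for glucose uptake, glycolysis, blood vessel growth, acid handling and mitochondrial turnover. Tumour cells are known to use part of this programme also when oxygen is plentiful. Accessibility at these genes is a property of chromatin and is not a measure of HIF1A protein or of transcription.

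The DNA under the windows is shown first, because the position of the core word relative to the summit can be read from it letter by letter. Stretches of 100 bases around the core word are given, from mm9, written 5′ to 3′ on the strand of the gene, in lower case, with each ACGTG or its complement CACGT in capitals. For each gene and class of window, the stretch whose word lay nearest the window centre is printed, where that distance was at most 100 bp and the word lay outside untranslated and non-coding exons. The first 4 stretches come from windows near an annotated start of Hif1a (chr12:75008672-75008771, plus strand), Ldha (chr7:54101079-54101178, plus strand), Hk2 (chr6:82723584-82723683, minus strand) and Car9 (chr4:43522053-43522152, plus strand).
Hif1a start: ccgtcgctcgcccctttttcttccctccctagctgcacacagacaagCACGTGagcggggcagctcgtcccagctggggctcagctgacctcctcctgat
Ldha start: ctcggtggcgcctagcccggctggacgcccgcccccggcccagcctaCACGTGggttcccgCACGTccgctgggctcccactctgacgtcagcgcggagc
Hk2 start: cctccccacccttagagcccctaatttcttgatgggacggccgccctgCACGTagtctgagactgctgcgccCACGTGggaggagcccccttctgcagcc
Car9 start: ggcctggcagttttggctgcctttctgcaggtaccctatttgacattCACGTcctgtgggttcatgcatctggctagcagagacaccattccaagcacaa
The Ldha stretch carries a CACGTG and a second core word 8 bases after it, an arrangement known from the hypoxia response element of this promoter. The Hk2 stretch also carries 2 sites, 1 of them a CACGTG, and the Hif1a stretch carries 1 CACGTG. The Car9 stretch overlaps a coding exon of the gene and holds a single site.

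The other 5 stretches come from windows away from annotated starts, in an intron of Bnip3 (chr7:146098881-146098980, minus strand), downstream of Slc2a1 (chr4:118813848-118813947, plus strand), in introns of Hk2 (chr6:82702720-82702819, minus strand) and Egln3 (chr12:55289478-55289577, minus strand), and beyond Car9 in an intron of its neighbour Tpm2 (chr4:43534247-43534346, written on the plus strand of Car9).
Bnip3 distal: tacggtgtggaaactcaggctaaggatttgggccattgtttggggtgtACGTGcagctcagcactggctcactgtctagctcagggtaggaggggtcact
Slc2a1 distal: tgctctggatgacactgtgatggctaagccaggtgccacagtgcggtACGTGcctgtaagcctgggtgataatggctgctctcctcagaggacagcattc
Hk2 distal: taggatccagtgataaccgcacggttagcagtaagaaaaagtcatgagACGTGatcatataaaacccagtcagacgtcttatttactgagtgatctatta
Egln3 distal: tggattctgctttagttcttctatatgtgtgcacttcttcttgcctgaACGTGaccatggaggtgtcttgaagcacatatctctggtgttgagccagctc
Car9 distal: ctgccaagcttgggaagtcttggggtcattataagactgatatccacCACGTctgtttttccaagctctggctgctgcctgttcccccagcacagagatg
In the Bnip3 and Slc2a1 stretches the core word lay at the window centre, 0 bp from it, and in both it was followed by a C to give ACGTGC. In the Hk2 stretch the word lay 7 bp from the centre, in the Egln3 stretch 63 bp and in the Car9 stretch 53 bp. The distance of 10 bp used next was chosen after these values were seen: 3 of the 30 distal windows of the 10 genes had a core word within 10 bp of the centre, against 1.42% of all 32071 distal windows of the list.

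**Figure D1:**
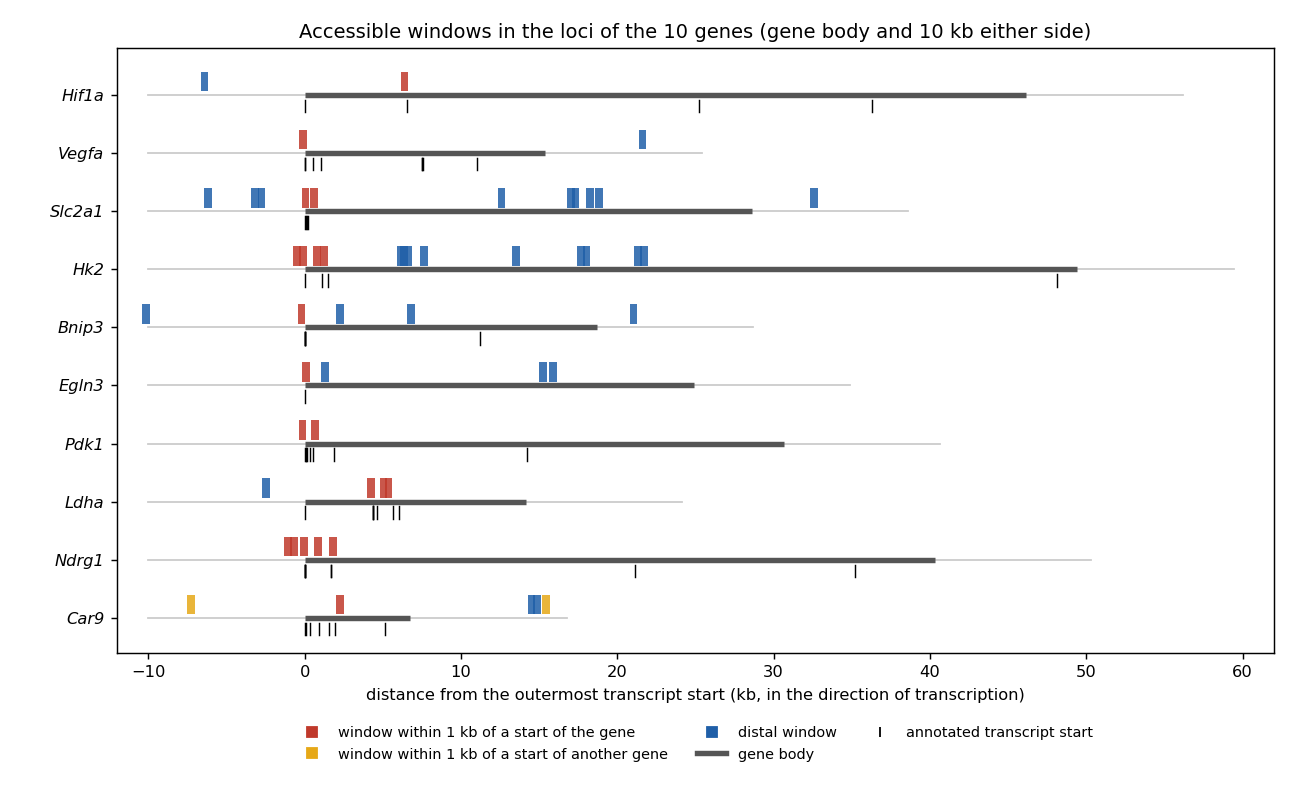
Windows in the loci of the 10 genes, drawn to scale, with the distance from the outermost annotated start in kb on the x axis and 1 line per gene. Red boxes are windows within 1 kb of a start of the gene, yellow boxes windows within 1 kb of a start of another gene, blue boxes distal windows, dark bars gene bodies and black ticks annotated starts. Slc2a1 and Hk2 hold 18 of the 30 blue boxes, and Pdk1 and Ndrg1 hold none.

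Of the 53 windows, 21 overlapped the region within 1 kb of a transcript start of the gene itself and are called promoter windows, 2 lay at starts of other genes next to Car9, and 30 lay beyond 1 kb from all starts of coding and long non-coding genes and are called distal. All 10 genes had at least 1 promoter window of their own. Over all 22350 protein-coding genes this share was 48.1%. Promoters rich in CpG are accessible in most cell types. Of the 10 genes, 9 had such starts, with a CpG ratio of 0.650 to 0.920. The ratio is the observed number of CpG over that set by base content, within 500 bp of a start. The highest value among the starts of a gene was taken. Among the genes with a ratio of 0.650 or more, 78.2% had a promoter window. Car9, with a ratio of 0.396, was the exception: among genes with no more CpG than Car9, 9.47% had a promoter window. These shares were not matched for the number of annotated starts, of which Car9 has 7, and the Car9 window lay at an internal start. A distal window was found at 8 of the 10 genes and at 43.8% of all protein-coding genes. The median was 1.5 distal windows per gene among the 10 (mean 3.00) and 0 over all protein-coding genes (mean 1.14).

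Hif1a (ENSMUSG00000021109.7, chr12:75002362-75048517, plus strand) had 2 windows. The first was a distal window 6.40 kb upstream of the outermost start. The other covered an annotated start 6529 bp downstream of the outermost one, and its centre lay 143 bp before that start. No window lay within 1 kb of the outermost start itself, nor of the remaining 2 annotated starts, so the only promoter window listed for Hif1a was at an internal start. This window held 2 core words.

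Egln3 (ENSMUSG00000035105.5, chr12:55279968-55304847, minus strand) encodes a prolyl hydroxylase that is itself induced when HIF is active. It had 1 annotated start, which lay under a window, and 3 distal windows, all in introns. The distal window nearest the start had its centre 1.29 kb into the gene, and the other 2 lay close together, 15.3 and 15.9 kb into the gene. The promoter window held no core word, whereas the paired intronic windows held 2 each. Among the 4550 protein-coding genes within 1.5-fold of its length, 12.1% had at least 3 distal windows.

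Slc2a1 (ENSMUSG00000028645.4, chr4:118781316-118809935, plus strand) encodes the glucose transporter GLUT1. It had 2 promoter windows, both from 1 accessible call with 2 summits, and 9 distal windows. Of the distal windows, 3 lay upstream, at 6.16, 3.17 and 2.76 kb from the nearest start, 5 lay in introns between 12.3 and 18.6 kb, and 1 lay past the 3′ end, 32.3 kb from the start. The gene is 28.6 kb long, and of 4432 genes within 1.5-fold of that length 19, or 0.429%, had at least 9 distal windows. With overlapping windows merged, Slc2a1 had 7, and 0.970% of those genes had at least 7.

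Hk2 (ENSMUSG00000000628.4, chr6:82675019-82724448, minus strand) encodes hexokinase 2, the first enzyme of glycolysis and a form raised in many tumours. It had 13 windows as listed, 4 promoter and 9 distal, against 11 at Slc2a1, but several of them overlapped: with overlapping windows merged, Hk2 had 2 promoter and 5 distal windows and Slc2a1 2 and 7. The promoter windows ran from 470 bp upstream of the outermost start to 1215 bp downstream of it and lay within 1 kb of 3 annotated starts. All 9 distal windows lay in introns, between 6131 and 21686 bp from the outermost start, and none in the remaining stretch of the gene or in either flank. Of 3544 genes of similar length, 1.61% had at least 9 distal windows and 3.98% at least 4 promoter windows. With overlapping windows merged in every gene, 6.12% had at least 5 distal windows and 24.7% at least 2 promoter windows.

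Ldha (ENSMUSG00000063229.7, chr7:54096845-54110997, plus strand) encodes the lactate dehydrogenase subunit that favours the making of lactate. Like Hif1a, it had no window within 1 kb of its outermost start. Its 3 promoter windows lay over and after a group of starts 4364 to 4388 bp downstream, and 1 distal window lay 2.46 kb before the outermost start. The 3 core words of the locus that lay in windows were all in the window over that group of starts, from which the printed stretch comes.

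Pdk1 (ENSMUSG00000006494.5, chr2:71711281-71741915, plus strand) encodes the kinase that inhibits pyruvate dehydrogenase and so holds pyruvate back from the mitochondria. It had 2 promoter windows, 133 bp before and 169 bp after the nearest start, and no distal window. These 2 windows held 6 core words, 2 and 4. The nearest of them to a window centre lay at 102 bp, just outside the limit for printing.

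Vegfa (ENSMUSG00000023951.9, chr17:46153942-46169326, minus strand) encodes the growth factor for blood vessels that is a standard target of HIF. It had 1 promoter window, centred 103 bp before the outermost start, and 1 distal window 21608 bp downstream of it, past the 3′ end. Neither held the core word, although its locus of gene body and flanks held 28 of them. Vegfa was the only gene of the 10 without a core word in any window.

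Bnip3 (ENSMUSG00000078566.2, chr7:146082519-146101202, minus strand) encodes a mitochondrial protein that promotes the removal of mitochondria. Beside 1 promoter window with 3 core words it had 4 distal windows, at 10.1 kb upstream, in introns 2272 and 6812 bp from the outermost start, and past the 3′ end. Among 4599 genes of similar length, 5.44% had at least 4 distal windows.

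Ndrg1 (ENSMUSG00000005125.6, chr15:66760883-66801202, minus strand) encodes a stress-responsive protein commonly used as a marker of hypoxia. All 5 of its windows were promoter windows. They lay from 1088 bp upstream to 1789 bp downstream of the outermost start, and 4 of the 5 held 1 core word each. Only 1.10% of all protein-coding genes, and 0.963% of the 3945 of similar length, had at least 5 promoter windows. With overlapping windows merged, Ndrg1 had 4, and 1.17% of those of similar length had at least 4. These shares and those of promoter windows at Hk2 were not matched for annotated starts, of which Ndrg1 has 8 and Hk2 4. Ndrg1 had no distal window by the 1 kb rule, but the division depends on that rule. With a promoter distance of 500 bp it had 3 promoter windows and 1 distal window, and with windows counted by their centre 4 and 1. An overlapping non-coding gene, Gm2895, has its start within 1 kb of 3 of these windows.

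Car9 (ENSMUSG00000028463.7, chr4:43519838-43526601, plus strand) encodes carbonic anhydrase 9, an enzyme at the cell surface that handles acid and is widely used as a marker of HIF activity in tumours. It is the shortest gene of the 10, at 6.76 kb. No window lay within 1 kb of the outermost start or of the next 3 starts. Its 1 promoter window was centred in a coding exon, 271 bp from an internal start that lies 1971 bp downstream of the outermost one, and a start of the non-coding gene Gm12454 was also within 1 kb. The other 4 windows of the locus lay toward its neighbours: 1 at a start of E130306D19Rik, 2 in an intron of Tpm2 and 1 at a start of Tpm2.

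The 10 genes have 56 annotated starts in all, of which 38 had a window within 1 kb and 27 lay under a window. When only the outermost start of each gene was used, 7 of the 10 genes had a promoter window, Hif1a, Ldha and Car9 being those without. The matching shares over all protein-coding genes and their starts are not given here. The 48.1% above counts a window at any start, so it is no background for these counts. Because all 10 genes had a promoter window at some start, those of Hif1a, Ldha and Car9 lay at internal starts by definition.

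**Figure D2:**
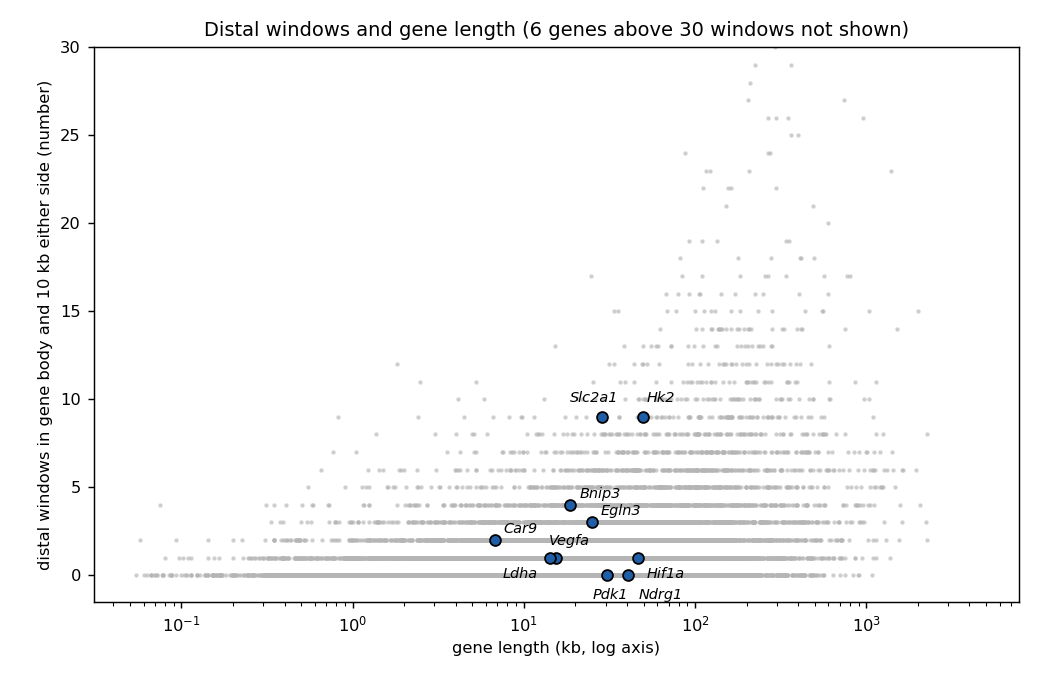
Number of distal windows (y axis) against gene length in kb (x axis, log scale) for all protein-coding genes (grey points) and for the 10 genes (blue points, named). Slc2a1 and Hk2 stand at 9 windows each, Bnip3 at 4, Egln3 at 3, Car9 at 2, and the other 5 genes at 1 or 0. The 6 genes above 30 windows are beyond the axis.

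The list gives no height or score for a window, but each call carries a number in order along the chromosome, and numbers absent between the windows of a locus belong to calls that were made and not listed. At Hk2, all 9 calls from the first window to the last were listed. All calls were likewise listed between the first and last windows of Hif1a (2 of 2), Pdk1 (2 of 2) and Ndrg1 (4 of 4). At Slc2a1 9 of 14 were listed, at Bnip3 5 of 7, at Egln3 4 of 7, at Ldha 3 of 4, at Car9 5 of 6 and at Vegfa 2 of 5. The first and last calls of each span are listed by construction, so 2 of 2 could not come out otherwise. Between the nearest listed windows outside the locus, 2 of 9 calls were listed at Hif1a, 2 of 10 at Pdk1, 4 of 8 at Ndrg1 and 9 of 17 at Hk2. At the other genes this ran from 2 of 9 at Vegfa to 5 of 8 at Car9. That wider span takes in unlisted calls outside the locus. Chromosome 12, on which Hif1a and Egln3 lie, had 27.2% of its numbered calls in the list, against 40.6 to 42.6% on the chromosomes of the other 8 genes. Chromosomes 1, 10, 11 and 13, which hold none of the 10 genes, were also low, at 27.7 to 31.3%. The shares over all protein-coding genes take in these chromosomes and were not matched for this. What part the low listing of chromosome 12 had in the low counts at Hif1a was not tested. Letters after a call number mark calls with several summits. Such calls gave 8 of the 23 windows at starts (34.8%, exact 95% interval 16.4 to 57.3; 33.0% of all promoter windows) and 7 of the 30 distal windows (23.3%, 9.93 to 42.3; 9.96% of all distal windows). The 7 distal ones were all at Slc2a1 and Hk2. The intervals are Clopper-Pearson intervals, which cover counting error only, and windows that overlap or belong to 1 gene are not independent.

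The core word of HIF was present in a larger share of these windows than of the list as a whole. Searched on both strands, ACGTG was present in 16 of the 23 windows at starts (69.6%, 47.1 to 86.8), the 2 at neighbouring genes included, and in 37.3% of all 17929 promoter windows. It was present in 15 of the 30 distal windows (50.0%, 31.3 to 68.7) and in 25.8% of all distal windows. Overlapping windows of Hk2 shared words, and each such window was counted. Promoter windows included, 9 of the 13 windows of Hk2 and 6 of the 11 of Slc2a1 held the word. The intervals do not allow for this. By gene, 8 of the 10 had the word in at least 1 promoter window of their own, all but Vegfa and Egln3, against 52.3% of all protein-coding genes that had a promoter window. The word contains CpG, and the content of CpG was therefore compared: the median CpG ratio was 0.683 in the windows at starts and 0.693 in all promoter windows, and 0.234 in the distal windows and 0.212 in all distal windows. Median GC content was 62.2% against 59.2% for promoter windows and 50.7% against 48.8% for distal windows. Whether this gap in GC content had a part in the share of windows with the word was not tested.

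**Figure D3:**
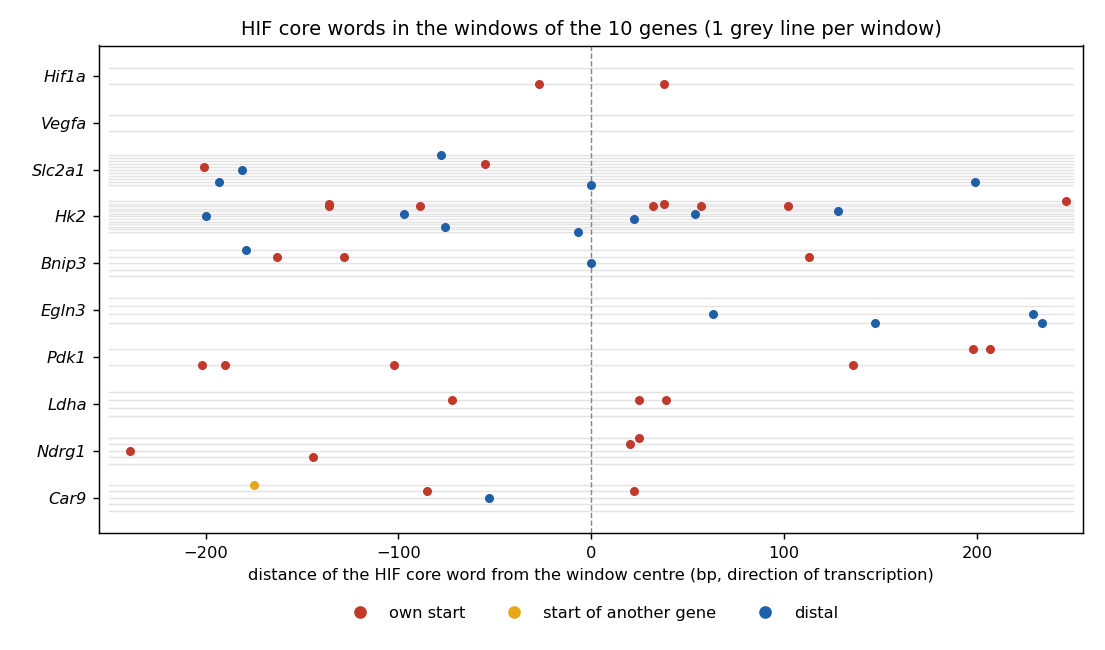
Position of each HIF core word in the 53 windows, as distance from the window centre in bp (x axis), by gene (y axis). Each grey line is 1 window and each point 1 word, red at a start of the gene, yellow at a start of another gene and blue in a distal window. Vegfa has no point, and the blue points at 0 bp belong to Slc2a1 and Bnip3.

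The loci of the 10 genes, flanks included, span 475 kb and hold 294 core words, with CACGTG counted once. Windows covered 5.14% of the loci and held 46 of the words, or 15.6%. Over the loci of all protein-coding genes, each counted in full where loci overlap, windows covered 1.77% of the sequence and held 3.19% of the words. By gene, the share of a locus's words that lay in windows was highest at Hk2, with 12 of 45 (26.7%), and Slc2a1, with 7 of 30 (23.3%). It was 4 of 19 at Car9, 4 of 20 at Bnip3, 6 of 36 at Pdk1, 3 of 20 at Ldha, 4 of 28 at Ndrg1 and 4 of 35 at Egln3. It was lowest at Hif1a, with 2 of 33 (6.06%), and Vegfa, with none of 28. These shares were not adjusted for the part of each locus that windows covered. That part was 10.7% at Slc2a1, 8.79% at Car9, 7.96% at Hk2, 5.48% at Bnip3 and 5.33% at Ldha. It was 4.46% at Egln3, 4.00% at Ndrg1, 2.83% at Vegfa, 1.97% at Pdk1 and 1.51% at Hif1a. Pdk1 thus had 6 of 36 words in windows that covered 1.97% of its locus.

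Longer and related forms of the word were also searched. The form ACGTGC was in 9 of 23 windows at starts (39.1%, 19.7 to 61.5) against 12.6% of all promoter windows, and in 5 of 30 distal windows (16.7%, 5.64 to 34.7) against 7.35%. The palindrome CACGTG, which contains ACGTG and is also read by MYC and other E-box proteins, was in 6 windows at starts (26.1%, 10.2 to 48.4) against 12.8%, and in 2 distal windows (6.67%, 0.818 to 22.1) against 8.55%. The variant GCGTG was in 73.9% of windows at starts (51.6 to 89.8) against 60.6%, and in 40.0% of distal windows (22.7 to 59.4) against 29.4%.

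Words of other factors were searched in the same windows, since AP-1, NFI and TEAD factors act widely in epithelial cells and ETS and RUNX factors in leukocytes. The AP-1 word TGANTCA was in 3 of 23 windows at starts (13.0%; 12.2% of all promoter windows) and in 16 of 30 distal windows (53.3%, 34.3 to 71.7; 31.9% of all distal windows). Of these 16, 7 were among the 9 distal windows of Slc2a1, 5 among the 9 of Hk2 and 4 among the 12 of the other 8 genes. Some of the windows with the AP-1 word at Slc2a1 and Hk2 overlapped and may share a word. The interval does not allow for this. The PU.1-like ETS word GAGGAA was in 16 windows at starts (69.6%, 47.1 to 86.8) against 39.9%, and in 16 distal windows (53.3%) against 43.8%. The RUNX word TGTGGT was in 26.1% of windows at starts and 26.7% of distal windows (12.3 to 45.9), against 22.3% and 37.6%.

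The NFI word TTGGCA was in 13.0% of windows at starts and 33.3% of distal windows, against 18.6% and 27.6%, and the TEAD word GGAATG in 17.4% and 33.3%, against 20.2% and 29.1%. The ETS word CCGGAA was in 21.7% and 13.3%, against 29.7% and 8.41%. The word GGGCGG, read by SP and KLF factors, was in 69.6% and 6.67%, against 62.5% and 13.6%, and the NFY word CCAAT in 47.8% and 36.7%, against 45.1% and 46.8%. A word in a window is a match of letters and not evidence of binding.

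**Figure D4:**
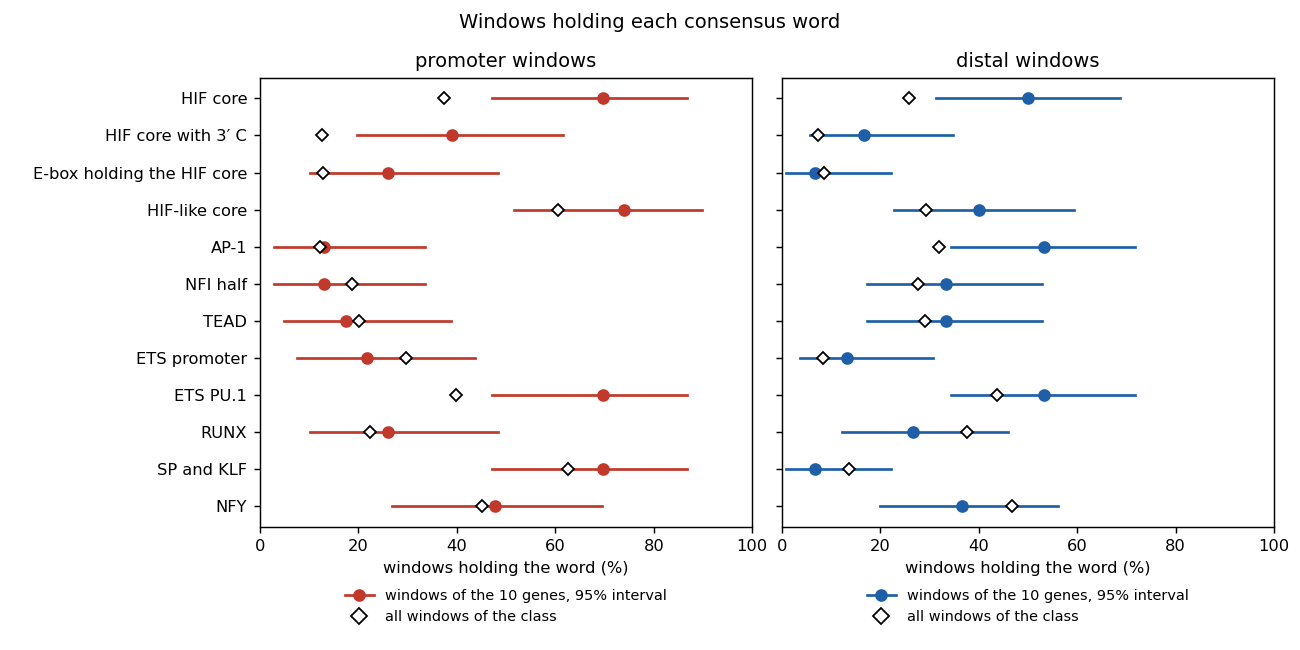
Percent of windows holding each of 12 consensus words (x axis), for the windows of the 10 genes (filled points with exact 95% binomial intervals; 23 at starts in the left panel, 30 distal in the right) and for all windows of the same class (open diamonds). The open diamond lies to the left of the interval for the HIF core in both panels, for its longer form and the PU.1-like word at starts, and for AP-1 in distal windows. For the other words it lies inside the interval. The intervals treat windows as independent, although some overlap and many belong to the same gene. They are not adjusted for the 12 words searched in each panel, and no test was made.

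Other genes of the pathway were counted from lists of the HIF machinery, of glycolysis and of other targets. Of the 16 machinery genes, 15 had a promoter window, among them Arnt, Vhl, Egln1 and Hif1an, the asparagine hydroxylase of HIF. The exception was Arnt2, the ARNT form best known from the nervous system, which had 2 distal windows. The most distal windows in this list were at Siah2, with 4, and at Crebbp and Egln1, with 3 each. Of the 20 genes of glucose uptake, glycolysis and lactate transport, 16 had a promoter window. Those without were Aldoc, Eno2, Ldhb and Pfkm, isoforms known chiefly from brain, heart or muscle. In this list Slc2a3 had 9 distal windows, Pfkp 7, and Hk1 and Pfkfb4 3 each. Of the 30 other targets, 22 had a promoter window and 8 had none, the first 5 of these by name being Adm, Car12, Ddit4, Edn1 and Lox. Bhlhe40 and Loxl2 had the most distal windows in this list, with 6 each, followed by Ddit4, an inhibitor of mTOR signalling, Mxi1 and Tfrc with 3 each. Over the 66 genes, 53 had a promoter window (80.3%) and 71.2% a distal window, with a median of 1 distal window per gene. Over all protein-coding genes these shares were 48.1% and 43.8%. The 66 genes had a median CpG ratio of 0.711 at their starts, against 0.603 over all genes, and the share with a promoter window among genes with a ratio of 0.650 or more was 78.2%, close to that of the 66.

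Of the paralogues of the 10 genes, 13 of 25 (52.0%) had a promoter window, near the 48.1% of all protein-coding genes. Their median CpG ratio was 0.590, against 0.805 for the 10 genes, and the part of this gap in the difference in counts was not tested. They share a protein family with the 10 genes, and 10 of the 25 also belong to the lists above. The other HIF alpha genes, Epas1 and Hif3a, each had 1 promoter and 1 distal window, as did Hif1a. In the VEGF family, Vegfb had 1 promoter window and Vegfc 3, whereas Figf and Pgf had none. Among glucose transporters, Slc2a3 had 1 promoter and 9 distal windows, while Slc2a2 and Slc2a4, the transporters of liver and of insulin-responsive tissue, had no promoter window. Hk1 had 1 promoter and 3 distal windows, and Hk3 had no promoter window. Egln1 and Egln2 had 1 and 5 promoter windows and 3 and 2 distal ones.

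Bnip3l, the closest relative of Bnip3, had 3 promoter windows and 1 distal window. Of the other pyruvate dehydrogenase kinases, Pdk2 and Pdk3 had 2 promoter windows each and Pdk4 had none. Whereas Ldha had 3 promoter windows, the lactate dehydrogenase genes Ldhb and Ldhc, a testis form, had no promoter and no distal window. Ndrg2 had no window, Ndrg3 had 1 promoter window, and Ndrg4 had 2 promoter and 5 distal windows. Car12 and Car14, relatives of Car9 that also act at the cell surface, had no promoter window, and Car12 had 1 distal window.

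**Figure D5:**
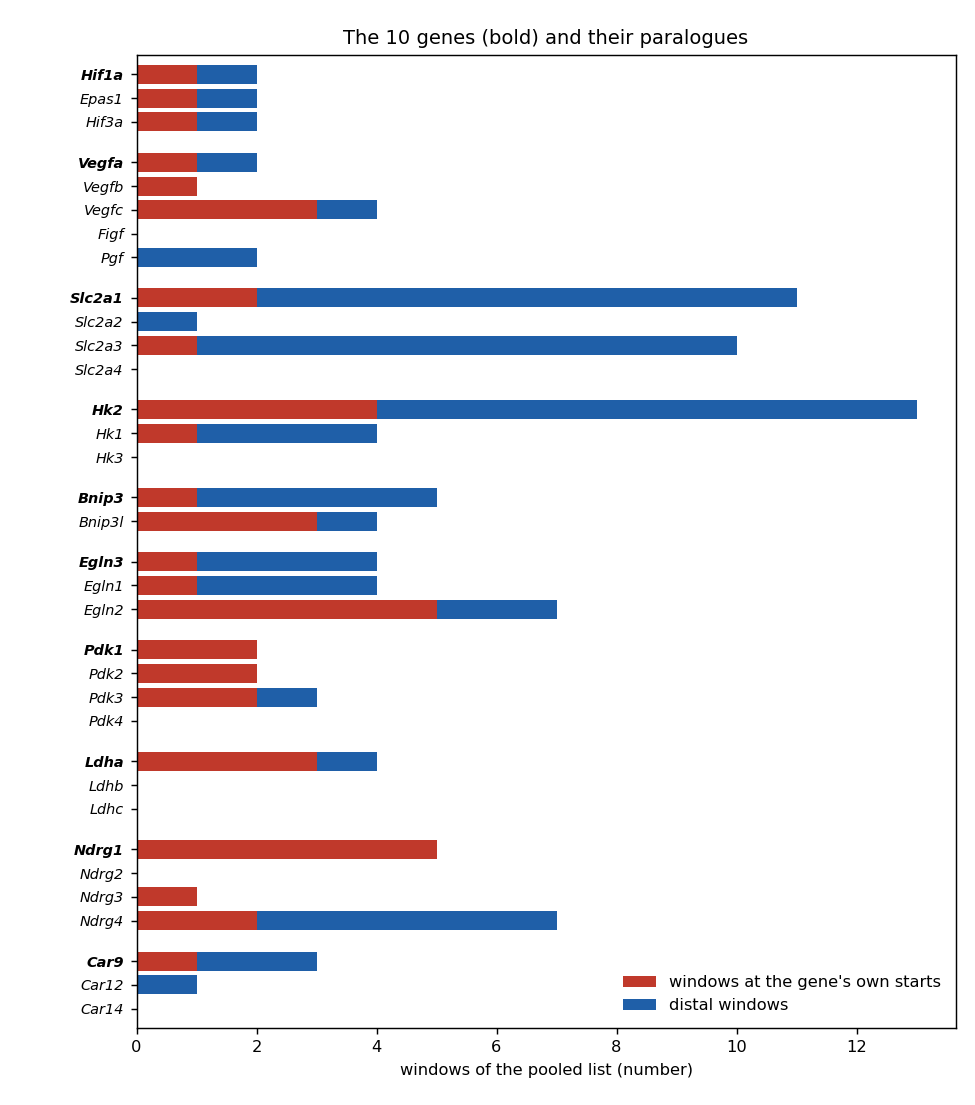
Number of windows (x axis) at the 10 genes (bold) and at 24 of their paralogues, grouped by family. Red bars count windows at the gene's own starts and blue bars, stacked on them, distal windows. Every bold gene has a red bar, and 11 of the 24 paralogues drawn, whose starts had less CpG as a list, have none.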

How the data were processed

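Pi-ATAC was performed by the authors on 192 single cells, 96 in each group by title. Reads were trimmed, mapped to mm9 with Bowtie2 2.1.0, cleared of duplicates (Picard 1.79) and mitochondrial reads, and aggregated by the authors for summit calling with MACS2 (version not given in the sources used here). The deposited unit was the position of each 500 bp window around a summit, kept by lowest q-value, with a call name and no score, count or q-value. From the call names, the list was taken to pool both groups; the methods instead describe aggregating the cells of a single condition. Read depth was not analysed here.

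From these positions, windows were assigned with Python 3.11.15 to GENCODE vM1 genes of mm9, the chromosome names and lengths of the reference having been checked against the windows. An overlap of at least 1 bp was required. Promoter windows lay within 1 kb of a transcript start, and loci took in 10 kb on either side of the gene. The 22350 protein-coding genes on 19 autosomes and X were the background. Words were searched on both strands of mm9, and intervals were computed with scipy 1.17.1. With 1 pooled list there were no replicates and no test was made. Members, gene lists and the 12 words were chosen with earlier results of these data known. Named were all 10 genes and their paralogues (the values of 1 paralogue and 1 marker gene are not reported here), the neighbours with a start at a window, the genes of a list without a promoter window (the first 5 by name where more) and the 3 with the most distal windows. The machinery genes named with a promoter window (Arnt, Vhl and Hif1an) and the genes tied with the 3 (Pfkfb4, Mxi1 and Tfrc) were chosen after their values were seen. Alternatives covered the promoter distance, flank, overlap rule, starts, merged and multi-summit windows and the form of the core word. RefSeq promoter tables on another build were not used here.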

Additional observations from a re-analysis of the deposited data

How the results depend on the processing

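No paired analysis was possible because the list is 1 pooled sample and no test was made. Of 37 alternatives to the counts and shares above, 24 stayed within 1.5-fold of the value given or within its interval, and so did 103 of 140 for single genes. The number of distal windows, 30, became 52 with a flank of 50 kb, 19 with the gene body only and 7 with windows of multi-summit calls only, and the genes with a distal window, 8, became 4 and 2 in these last settings, in which the share of all protein-coding genes went from 43.8% to 27.4% and 4.80%. With a flank of 50 kb, 9 of the 10 genes and 71.1% of all protein-coding genes had a distal window. Windows at starts, 23, became 36 with a flank of 50 kb and 8 with multi-summit calls only. With multi-summit calls only, genes with a promoter window fell from 10 to 4, other pathway genes from 53 to 23 and paralogues from 13 to 3, while the share of all protein-coding genes went from 48.1% to 13.0%. The HIF core was in 58.5% of the 53 windows and in 29.9% of all windows. These shares were 32.1% and 14.3% in the central 200 bp, 26.4% and 9.24% for ACGTGC, and 75.5% and 56.4% for ACGTG or GCGTG. Fewer windows are available with multi-summit calls only, by construction. The list holds only the calls with the lowest q-values, so a locus without a window may hold a weaker call.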

Other observations

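Beyond the 10 kb flanks, the region from 10 to 50 kb from each gene held 13 windows at Ndrg1 and at most 7 at the others of the 10 genes. Windows in this region were not counted over all protein-coding genes, so these counts have no background. Ndrg1, which had no distal window within 10 kb, had 13 windows in that region, of which 11 were distal, the nearest 10.7 kb from the gene. On the downstream side lay 10 of the 13, from 65.1 to 86.4 kb past the outermost start of Ndrg1, within and around Wisp1, a matricellular gene of the CCN family, and 2 of them lay at starts of that gene. The 3 upstream windows lay 11.0, 28.0 and 28.9 kb from the start, in introns of the non-coding gene Gm2895. No value here assigns these windows to either gene.

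Car9 had 7 windows between 10 and 50 kb, 5 of them at starts of its neighbours. Vegfa had 4, all distal, 3 of which lay 41.6 to 48.7 kb upstream, a side on which no window was listed within 10 kb beyond the one at its start. Bnip3 had 4, 3 of them at the starts of Mapk1ip1 and Ppp2r2d. Hif1a and Ldha had 2 each, Slc2a1, Hk2 and Egln3 had 1 each, and Pdk1 had none. Slc2a1 and Hk2, with the most distal windows near the gene, thus had 1 window each in this wider region.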
